A study of Mus musculus with 67 samples.

Results

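The comparison described here is the difference between 2 estimates of the same acute inflammatory response of mouse brain microglia: the response to lipopolysaccharide (LPS) read in sorted cells and the response read in ribosomes pulled down from whole brain. It takes 14 of the 67 libraries of the series, those of the LPS experiment that are either sorted cells or a whole-brain pull-down with the antibody against the tag, leaving out the isotype control (IgG) pull-downs and the pull-downs made from sorted cells. For each gene the quantity reported is the log2 change from PBS to LPS in sorted cells minus the log2 change from PBS to LPS in pull-downs, called the term below. A positive term means a higher rise or a smaller fall in sorted cells, and a negative term the reverse. Among the genes counted, 10497 had enough reads to be tested.

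All 4 groups were C57BL/6J mice labelled CX3CR1CreER/WT RLP22HA/HA, all given tamoxifen (5 mg by gavage, 4 times, at 4 to 6 weeks of age), and the age at sampling is not given in the sources used here. The treatments were crossed with 2 preparations: PBS pull-down (3 libraries), LPS pull-down (4), PBS sorted (3) and LPS sorted (4). LPS was injected into the peritoneum at 2.5 mg/kg, and the brains were taken 3 h later. The Cx3cr1 promoter drives the inducible Cre, so the tag is switched on in any cell that used this promoter at the time of tamoxifen, which in the brain covers microglia and the macrophages at its borders. Sorted cells were gated as GR1 negative, CD45 intermediate and CD11b positive, and their total RNA was sequenced. The pull-down starts from frozen brain homogenised with cycloheximide, while sorting passes through dissociation of living tissue and antibody staining. Whether the sorted cells of the LPS experiment went through the enzymatic digest is not given in the sources used here. The submitters describe the replicates as individual mice and say that sorting and pull-down used the same animals.

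LPS is a component of the outer membrane of Gram-negative bacteria and is sensed by Toll-like receptor 4 (TLR4) with its co-receptor CD14. Its signal frees the transcription factor NF-kB from its inhibitors, activates the AP-1 factors of the Jun and Fos families, and through a second branch induces type I interferon and the interferon-stimulated genes. Feedback proteins such as SOCS3, which blocks cytokine receptor signalling, and tristetraprolin (Zfp36), which speeds the decay of cytokine mRNAs, are induced along with the cytokines. Immediate early genes such as Jun, Fos and Ier2 are transcribed within minutes of many stimuli, handling of living cells among them.

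Counts assigned to genes ran from 1131402 to 3513317 per pull-down library and from 501321 to 1020518 per sorted library, so the sorted side of each term is the shallower one. On the first principal component (75.7% of the variance) the preparations separated, and on the second (13.9%) the treatments. LPS sorted replicate 1 stood apart on the third (1.8%), and its summed neuron markers were at 374 CPM against 187 to 218 in the other LPS sorted libraries. Homeostatic microglia markers, 30 genes, summed to 65000 to 71100 CPM in PBS and 59800 to 72700 in LPS pull-downs, to 70500 to 72200 and 55400 to 58000 in sorted cells, and to 2180 to 4140 in the IgG controls, and none of them was at 0 in a group. Neuron markers, 25 genes, summed to 5860 to 7510 CPM in pull-downs against 177 to 374 in sorted cells and 15800 to 24000 in IgG, and border macrophage markers to 830 to 1270 in pull-downs against 304 to 449 in sorted cells, where 6 of 14 were at 0 in PBS and 5 in LPS mice. Lymphocyte markers in sorted cells summed to 115 to 147 CPM in PBS and 18.9 to 24.4 in LPS mice, and neutrophil and monocyte markers to 256 to 347 and 156 to 260. Of the 15 lymphocyte genes 12 were at 0 in PBS and 12 in LPS sorted cells, and Il7r alone was at 54.6 to 74.9 and 4.74 to 14.5 CPM. Of the 19 neutrophil and monocyte genes 10 were at 0 in PBS and 4 in LPS sorted cells. Ependyma and choroid plexus markers, 11 genes of which 3 were tested, summed to 73.3 to 225 CPM in PBS sorted cells and to 139, 257, 838 and 747 in LPS sorted replicates 1 to 4, against 538 to 711 and 377 to 669 in pull-downs and 791 to 2120 in IgG. The median of those 3 terms was 1.9 and none was called (2 at an unadjusted p under 0.05, 1 higher by DESeq2). In sorted cells erythroid markers reached 546 CPM in LPS sorted replicate 4 against a lowest value of 16.5 in that group. The part of these other cells in the terms was not tested, and in bulk libraries fewer cells of a type and less RNA per cell cannot be told apart.

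The term was called for 552 genes, 5.26% of those tested, at an adjusted p under 0.05 in edgeR's quasi-likelihood F test. The response was higher in sorted cells for 154 of them (1.47%) and lower for 398 (3.79%). The balance of the directions moved with the processing: 27.9% of the called terms were higher in the values given here, against 44.4% at a minimum count of 30 (209 higher and 262 lower) and 41.7% in the DESeq2 test (186 and 260). The share was 40.4% under DESeq2 size factors (189 and 279), 38.6% with no filter beyond 1 count (210 and 334) and 33.5% under total counts (166 and 329). Leaving out a single library moved the total or the count in a direction by over 1.5 times for LPS pull-down 1 (123 higher and 238 lower), 2 (121 and 261) and 4 (241 and 515), LPS sorted 3 (96 and 251), PBS pull-down 1 (126 and 196), 2 (138 and 238) and 3 (103 and 199), and PBS sorted 1 (100 and 264) and 2 (93 and 289). The median term over all genes was -0.06, and 0.016 under DESeq2 size factors. LPS itself raised 2144 genes (20.4%) and lowered 2184 (20.8%) in sorted cells, and raised 1948 (18.6%) and lowered 1550 (14.8%) in pull-downs. Under total counts the median response of all genes moved by -0.14 in pull-downs and -0.11 in sorted cells, and 39.5% of the called pull-down responses were then rises, against 55.7% with TMM scaling.

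The largest class of called terms, 221 genes, fell in sorted cells after LPS and had no called response in pull-downs. A further 95 fell in both preparations with a more negative change in sorted cells, 36 rose in pull-downs alone, and 30 rose in both but less in sorted cells. Among the 154 genes with a higher response in sorted cells, 82 rose in sorted cells alone, 40 rose in both and 19 fell in pull-downs alone. Called changes of opposite sign were found for 15 genes that fell in sorted cells while rising in pull-downs and 9 genes that did the reverse. Sparse reads touched part of these genes: 6 of the 398 lower and 2 of the 154 higher genes had no read in 1 of the 4 groups, and 15 and 11 had at most 3. The mean pull-down level was at or below the mean of the IgG control for 45.5% of the genes with a lower and 55.8% of those with a higher response in sorted cells, against 47.6% of the genes without a called term.

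**Figure D1:**
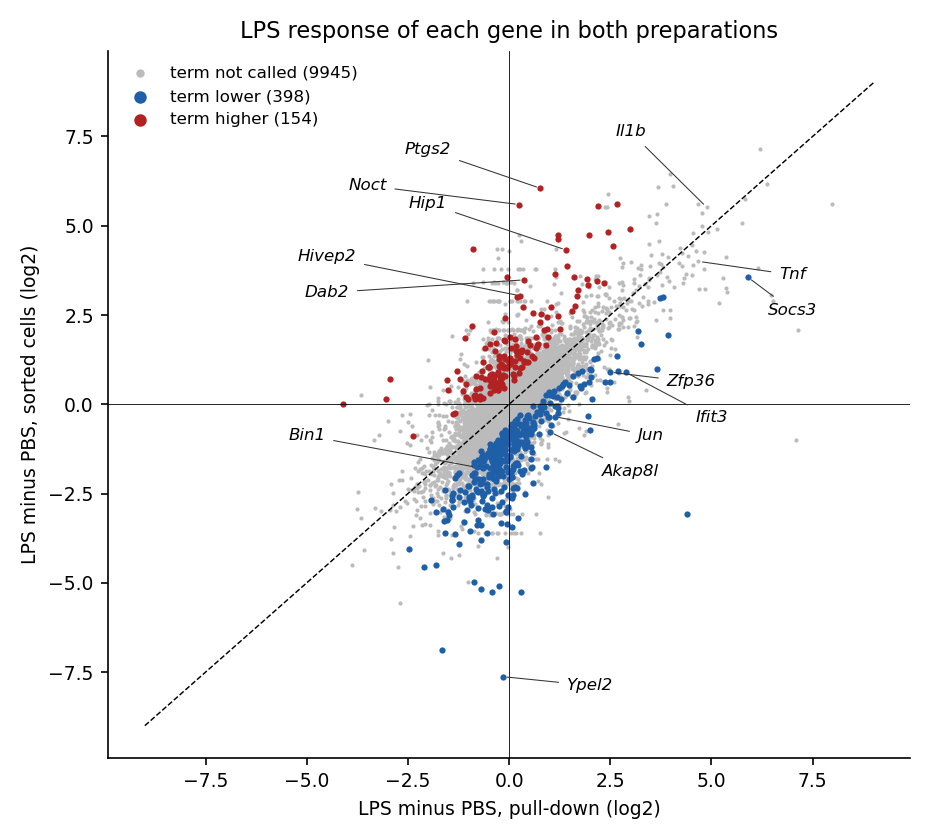
Log2 change from PBS to LPS of each tested gene in pull-downs (horizontal axis) and in sorted cells (vertical axis); coloured points are genes whose difference between the 2 responses was called. The 398 genes with a lower response in sorted cells lie below the diagonal and the 154 with a higher response above it.

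Most genes of the NF-kB branch rose in both preparations. Of 26 tested genes of TLR4 and NF-kB signalling, 22 rose in sorted cells and 22 in pull-downs, the same 22 genes in both, with median responses of 1.89 and 2.48. The term was lower for 3, against 3.79% of all genes tested, and higher for none (6 at an unadjusted p under 0.05, and none called by DESeq2). The count of lower terms was 0 under DESeq2 size factors, at a minimum count of 30, and without LPS pull-down 2, LPS sorted 3, PBS pull-down 1 or 3 or PBS sorted 3. It was 1 without LPS pull-down 1, LPS sorted 4, PBS pull-down 2 or PBS sorted 1 or 2. Nfkbia was at 211, 184 and 226 CPM in the PBS pull-downs and 914, 1350, 1240 and 1050 in the LPS pull-downs. Sorted-cell values of Nfkbia were 520, 446 and 456 CPM in PBS and 1450, 2790, 2260 and 2050 in LPS mice. Nfkbia encodes the inhibitor that NF-kB itself induces. Nfkbia separated the treatments in both preparations, with every LPS library above every PBS one. Its change of 2.17 in sorted cells and 2.46 in pull-downs gave a term of -0.29 ± 0.23 SE, adjusted p = 0.55, and the IgG control changed by 1.48 from 91 CPM. Cd14 pull-down levels were 124, 138 and 146 CPM in PBS and 960, 1140, 1070 and 888 in LPS mice. In sorted cells Cd14 was at 367, 321 and 422 CPM and at 2180, 2480, 2240 and 2390 CPM. Cd14 separated the treatments in both preparations, with every LPS library above every PBS one. For this co-receptor the changes were 2.65 in sorted cells and 2.90 in pull-downs and the term was -0.25 ± 0.18 SE, adjusted p = 0.495.

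Called as lower in this list were Rela, the p65 subunit of NF-kB, and 2 members of the inhibitor family, Nfkbid and Nfkbib. Rela stood at 209 ± 29.2 and 622 ± 147 CPM in PBS and LPS pull-downs and 164 ± 13.3 and 287 ± 19.5 CPM in PBS and LPS sorted cells, where ± is the SD over 3 PBS or 4 LPS libraries here and below. A call is given as lost where leaving out the library named by its group and replicate number, or another alternative setting, brought the adjusted p to 0.05 or above. Rela rose in both, by 0.81 in sorted cells and 1.57 in pull-downs (term -0.77 ± 0.21 SE, adjusted p = 0.0234). The Rela call was lost without LPS pull-down 2, LPS sorted 3, PBS pull-down 1, 2 or 3 or PBS sorted 1 or 3 and under DESeq2 size factors, in the DESeq2 test or at a minimum count of 30 (adjusted p 0.0516 to 0.168). Nfkbib stood at 63.8 ± 7.37 and 285 ± 70.2 CPM in PBS and LPS pull-downs and 49.1 ± 1.89 and 120 ± 19.6 CPM in PBS and LPS sorted cells (term -0.86 ± 0.26 SE, adjusted p = 0.0421). The Nfkbib call held in 3 of 22 alternatives and was lost without LPS pull-down 1, 2 or 3, LPS sorted 1, 3 or 4, PBS pull-down 1, 2 or 3 or PBS sorted 1, 2 or 3 and under DESeq2 size factors, under total counts, in the DESeq2 test, with no filter beyond 1 count, at a minimum count of 30, with all 28 libraries or with non-robust dispersions (adjusted p 0.0509 to 0.187). Nfkbid rested on 2 reads in PBS and 51 in LPS pull-downs, a ratio of 15 with an exact 95% counting interval of 3.96 to 128, and in sorted cells it went from 19.2 ± 4.58 to 36.9 ± 1.62 CPM. Its term (adjusted p = 0.0421) was lost without LPS pull-down 1 or 2, LPS sorted 2, 3 or 4, PBS pull-down 1 or 3 or PBS sorted 2 or 3 and under DESeq2 size factors, in the DESeq2 test or at a minimum count of 30 (adjusted p 0.053 to 0.187).

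Most cytokine and chemokine genes, the secreted output of the pathway, rose in both preparations, and 1 of the 32 tested had a called term, against 5.26% of all genes. No cytokine of 14 tested had a called term (3 had an unadjusted p under 0.05, and DESeq2 called 1 lower), and 9 of them rose in both preparations. Tnf was at 0.707, 1.91 and 2.22 CPM in the PBS pull-downs and 23.6, 49.3, 55.1 and 57.1 in the LPS pull-downs. Sorted-cell values of Tnf were 17.1, 13 and 10.5 CPM in PBS and 170, 256, 287 and 182 in LPS mice. Its level was higher in sorted cells than in pull-downs by 3.04 (log2, adjusted p = 0.000356) in PBS and by 2.37 (adjusted p = 4.87e-10) in LPS mice. In both preparations every LPS library of this cytokine lay above every PBS library, and LPS sorted cells lay above LPS pull-downs. The change was 4.00 in sorted cells and 4.68 in pull-downs (term -0.67 ± 0.86 SE, adjusted p = 0.699). Il1b, which encodes interleukin-1 beta, stood at 4.19 ± 0.908 and 129 ± 39.9 CPM in PBS and LPS pull-downs and 8.63 ± 3.61 and 420 ± 153 CPM in PBS and LPS sorted cells, a term of 0.64 ± 0.95 SE, adjusted p = 0.809. Of 18 chemokine genes 16 rose in both preparations, and Cxcl9 was the one with a called term (2 had an unadjusted p under 0.05). Cxcl9 pull-down levels were 12.7, 22.9 and 8.87 CPM in PBS and 45.7, 58.2, 43.3 and 36.4 in LPS mice. In sorted cells Cxcl9 was at 1.71, 6.52 and 5.26 CPM and at 25.6, 58.4, 56.1 and 53.3 CPM. Cxcl9 separated the treatments in both preparations, with every LPS library above every PBS one. Cxcl9 encodes a ligand of the chemokine receptor CXCR3, and its response was higher in sorted cells (term 1.95 ± 0.59 SE, adjusted p = 0.0235), with the lowest LPS sorted value in replicate 1. The Cxcl9 call was lost without LPS sorted 3, PBS pull-down 2 or PBS sorted 1 (adjusted p 0.0574 to 0.169). IgG also rose, from 2.09 to 11.4 CPM.

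Acute-phase genes, such as the iron-binding secreted protein lipocalin 2 (Lcn2), are induced by LPS in vessels and astrocytes as well as in myeloid cells. None of the 12 tested had a called term (3 had an unadjusted p under 0.05 and DESeq2 called 1 lower). Lcn2 was at 1.41, 0.637 and 2.96 CPM in the PBS pull-downs and 124, 183, 189 and 107 in the LPS pull-downs. Sorted-cell values of Lcn2 were 0, 2.61 and 3.94 CPM in PBS and 3.66, 22.1, 16.4 and 20 in LPS mice. For Lcn2, in pull-downs the LPS libraries lay above every PBS one, and in sorted cells the LPS libraries overlapped the PBS ones. The LPS sorted libraries lay below all LPS pull-downs. The term (-3.40 ± 1.16 SE, adjusted p = 0.138) became a call with the replicate number as a block (-3.50, adjusted p = 0.0292), with no filter beyond 1 count (-3.34, adjusted p = 0.0293) and in the DESeq2 test (-3.37, adjusted p = 0.0133), and the IgG control rose from 8.26 to 95 CPM.

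**Figure D2:**
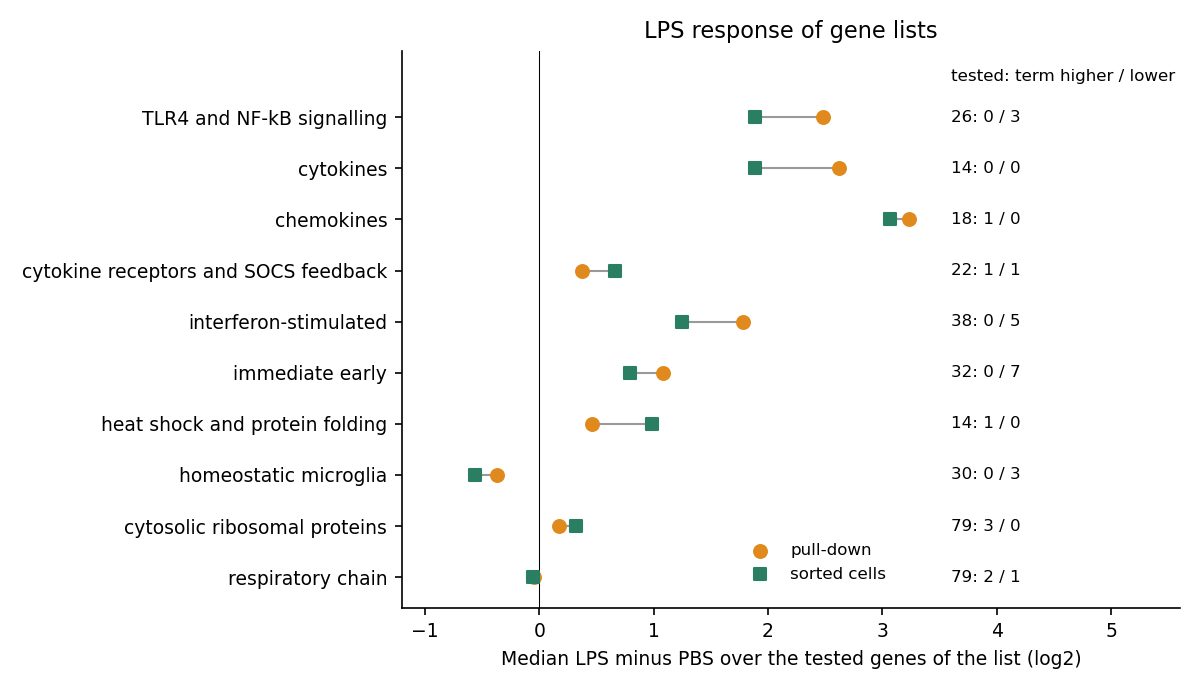
Median log2 change from PBS to LPS over the tested genes of 10 lists, in pull-downs (circles) and sorted cells (squares), with the number of genes tested and of called terms beside each list. TLR4 and NF-kB signalling sits at 2.48 in pull-downs and 1.89 in sorted cells, and interferon-stimulated genes at 1.78 and 1.25.

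Among feedback genes the term was called once in each direction. Of 22 tested cytokine receptors and SOCS genes, 1 term was lower (Socs3) and 1 higher (Socs2), DESeq2 calling 1 each way as well. Over all genes tested 3.79% of terms were lower and 1.47% higher. The median term of the list was -0.052, against -0.06 over all genes. Socs3 was at 15.6, 19.1 and 22.2 CPM in the PBS pull-downs and 1090, 1390, 1080 and 995 in the LPS pull-downs. Sorted-cell values of Socs3 were 131, 102 and 120 CPM in PBS and 1280, 1560, 1450 and 1250 in LPS mice. Socs3 separated the treatments in both preparations, with every LPS library above every PBS one. Before LPS its level was higher in sorted cells by 2.64 (log2, adjusted p = 1.11e-15), and after LPS by 0.28 (adjusted p = 0.0265). The rise was 3.55 in sorted cells and 5.91 in pull-downs, a term of -2.35 ± 0.24 SE, adjusted p = 4.77e-09, called in all 22 alternatives that gave a value. IgG libraries went from 11.8 to 61.2 CPM, and in pull-downs from sorted cells, which the term does not use, the rise was 4.33. Socs2 pull-down levels were 12.7, 9.56 and 8.13 CPM in PBS and 77.5, 96.2, 72.8 and 79 in LPS mice. In sorted cells Socs2 was at 5.12, 5.21 and 2.63 CPM and at 115, 163, 146 and 119 CPM. Socs2 separated the treatments in both preparations, with every LPS library above every PBS one. Socs2, which restrains growth hormone and cytokine receptors, rose by 4.91 in sorted cells and 2.99 in pull-downs, a term of 1.92 ± 0.49 SE, adjusted p = 0.00684, called in all 22 alternatives that gave a value.

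Most interferon-stimulated genes rose in both preparations, and where the term was called the rise was smaller in sorted cells. Of 38 tested, 31 rose in sorted cells and 34 in pull-downs, 29 of them in both, with medians of 1.25 and 1.78. The term was lower for 5, against 3.79% of all genes tested, and higher for none (10 at an unadjusted p under 0.05, and 4 lower by DESeq2). The count of lower terms was 1 without PBS pull-down 3 or PBS sorted 1, and 2 without PBS pull-down 1. Among the interferon-stimulated genes it was 3 under DESeq2 size factors and without LPS pull-down 1, 2 or 3, LPS sorted 3 or 4, PBS pull-down 2 or PBS sorted 3, and 8 without LPS pull-down 4. Ifit3 was at 28.3, 35.7 and 25.1 CPM in the PBS pull-downs and 234, 254, 237 and 145 in the LPS pull-downs. Sorted-cell values of Ifit3 were 30.7, 30 and 22.3 CPM in PBS and 44, 67.9, 44.5 and 54.4 in LPS mice. Ifit3 encodes a cytosolic protein that binds foreign RNA. Ifit3 separated the treatments in both preparations, with every LPS library above every PBS one. Its rise of 0.90 in sorted cells and 2.88 in pull-downs gave a term of -1.98 ± 0.32 SE, adjusted p = 7.24e-05, called in all 22 alternatives that gave a value. In the IgG control it rose by 2.25, from 13.1 to 62 CPM, and in pull-downs from sorted cells by 0.76.

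Isg15, a ubiquitin-like modifier, stood at 53.8 ± 8.04 and 490 ± 87.2 CPM in PBS and LPS pull-downs and 28.5 ± 8.56 and 122 ± 4.83 CPM in PBS and LPS sorted cells (term -1.14 ± 0.27 SE, adjusted p = 0.00807). The Isg15 call was lost without PBS pull-down 1 or 3 or PBS sorted 1 (adjusted p 0.0578 to 0.177). Mx2, a dynamin-like antiviral GTPase, stood at 4.31 ± 2.54 and 29 ± 4.85 CPM in PBS and LPS pull-downs and 33.4 ± 7.04 and 67.7 ± 17.8 CPM in PBS and LPS sorted cells, so that its level was higher in sorted cells under both treatments while its rise was smaller (term -1.75 ± 0.46 SE, adjusted p = 0.0103). The Mx2 call was lost without PBS pull-down 3 or PBS sorted 1 (adjusted p 0.0516 to 0.108). Rsad2, which encodes viperin, stood at 11.8 ± 3.94 and 176 ± 47.9 CPM in PBS and LPS pull-downs and 22.8 ± 4.04 and 87.6 ± 41.3 CPM in PBS and LPS sorted cells (term -1.99 ± 0.53 SE, adjusted p = 0.036). The Rsad2 call was lost without LPS pull-down 1, 2 or 3, LPS sorted 3 or 4, PBS pull-down 1, 2 or 3 or PBS sorted 1, 2 or 3 and under DESeq2 size factors (adjusted p 0.0625 to 0.163). Mx1, named because it is the fifth called member, had a term of -1.31 ± 0.43 (SE, adjusted p = 0.0473). Whether the Mx1 call held in each alternative is not given here. All 5 genes also rose in the IgG controls, Isg15 by 2.45, Mx2 by 2.13, Rsad2 by 4.16 and Mx1 by 2.15 on the log2 scale. Interferon-stimulated genes summed to 729 to 992 CPM in LPS and 230 to 296 in PBS IgG libraries, against 3530 to 4640 and 1380 to 1580 in pull-downs, and the part of IgG background in these terms was not tested.

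Immediate early genes summed to more in sorted cells than in pull-downs under both treatments, and 7 of them had a lower response to LPS in sorted cells. Their 37 genes summed to 5500 to 5960 CPM in PBS sorted cells against 1630 to 1890 in PBS pull-downs, and to 8330 to 9990 against 4030 to 4810 after LPS. In the IgG controls they summed to 1870 to 2350 CPM in PBS and 1880 to 2280 in LPS mice. Of 32 tested, 19 rose in sorted cells and 20 in pull-downs. The term was lower for 7, against 3.79% of all genes tested, and higher for none (11 at an unadjusted p under 0.05, and DESeq2 called 7 lower and 1 higher). Of the fitted terms 16 lay above 0 and 16 below. Whether the set leaned to 1 side depended on 2 genes with an empty group. Their median term was 0.041 as fitted and -0.37 with empty groups set to 3 reads, against -0.06 over all genes. The lower count stayed between 6 and 7 in every alternative. Jun was at 84.9, 76.5 and 78.4 CPM in the PBS pull-downs and 185, 154, 190 and 166 in the LPS pull-downs. Sorted-cell values of Jun were 1130, 1300 and 1110 CPM in PBS and 830, 1050, 950 and 892 in LPS mice. For Jun, the AP-1 subunit, in pull-downs the LPS libraries lay above every PBS one, and in sorted cells the LPS libraries lay below every PBS one. Jun fell by 0.34 on the log2 scale in sorted cells (adjusted p = 0.0195) and rose by 1.12 in pull-downs (adjusted p = 1.11e-08), a term of -1.47 ± 0.18 SE, adjusted p = 1.11e-06, called in all 22 alternatives that gave a value. Zfp36 pull-down levels were 29, 37 and 26.6 CPM in PBS and 184, 191, 174 and 150 in LPS mice. In sorted cells Zfp36 was at 578, 586 and 540 CPM and at 901, 1120, 1100 and 1120 CPM. Zfp36 separated the treatments in both preparations, with every LPS library above every PBS one. Zfp36 rose by 0.90 in sorted cells and 2.50 in pull-downs (term -1.60 ± 0.21 SE, adjusted p = 1.68e-06), called in all 22 alternatives that gave a value, and its lowest LPS sorted value, 901 CPM, was that of replicate 1.

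Ier2 was at 34, 28 and 30.3 CPM in the PBS pull-downs and 312, 389, 238 and 240 in the LPS pull-downs. Sorted-cell values of Ier2 were 81.9, 86 and 106 CPM in PBS and 273, 363, 266 and 276 in LPS mice. Ier2, a short-lived transcriptional regulator, overlapped between the preparations after LPS but not before it, rising by 1.69 in sorted cells and 3.27 in pull-downs (term -1.58 ± 0.26 SE, adjusted p = 7.5e-05). Btg2 pull-down levels were 92.7, 84.7 and 75.4 CPM in PBS and 214, 171, 146 and 114 in LPS mice. In sorted cells Btg2 was at 407, 345 and 326 CPM and at 280, 261, 320 and 271 CPM. For Btg2, in pull-downs the LPS libraries lay above every PBS one, and in sorted cells the LPS libraries lay below every PBS one. Btg2, an antiproliferative factor that promotes deadenylation of mRNA, rose in pull-downs (0.96), while its change in sorted cells was -0.35 (adjusted p = 0.063), a term of -1.30 ± 0.22 SE, adjusted p = 0.000124. Both terms were called in all 22 alternatives that gave a value. The other called members, named after their values were seen, were Junb, an AP-1 subunit (term -1.04 ± 0.19, SE), Ppp1r15a, a stress-induced phosphatase subunit (-1.13 ± 0.28), and Rhob, a small GTPase (-0.57 ± 0.17). Whether the calls of Junb, Ppp1r15a and Rhob held in each alternative is not given here. Fos was at 24.8, 23.6 and 18.5 CPM in the PBS pull-downs and 25.2, 27.3, 37.4 and 15.6 in the LPS pull-downs. Sorted-cell values of Fos were 452, 485 and 468 CPM in PBS and 452, 641, 736 and 648 in LPS mice. For Fos, in pull-downs the LPS libraries overlapped the PBS ones, and in sorted cells the LPS libraries overlapped the PBS ones. Fos had no called term (0.14 ± 0.27 SE, adjusted p = 0.854), although its level was higher in sorted cells by 4.38 in PBS and 4.53 in LPS mice. In PBS mice the IgG mean was above the pull-down mean for Jun (86.9 against 79.9 CPM), Ier2 (59.5 against 30.8) and Fos (57.1 against 22.3). It was below for Zfp36 (20.6 against 30.9) and Btg2 (39.4 against 84.3). After LPS the Fos means were 52.4 CPM in IgG and 26.4 in pull-downs. The part of IgG background in these responses was not tested.

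Higher immediate early levels in sorted cells were also measured without LPS in the digest experiment, whose 15 libraries are not used by the term. There Jun was higher in cells sorted after the digest than in pull-downs by 5.64, Zfp36 by 6.47, Ier2 by 4.47, Btg2 by 4.45 and Fos by 7.01 on the log2 scale. Without the digest the same differences were 5.20, 6.42, 4.85, 4.49 and 6.56. Among PBS mice of the LPS experiment they were 3.88, 4.19, 1.56, 2.09 and 4.38.

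**Figure D3:**
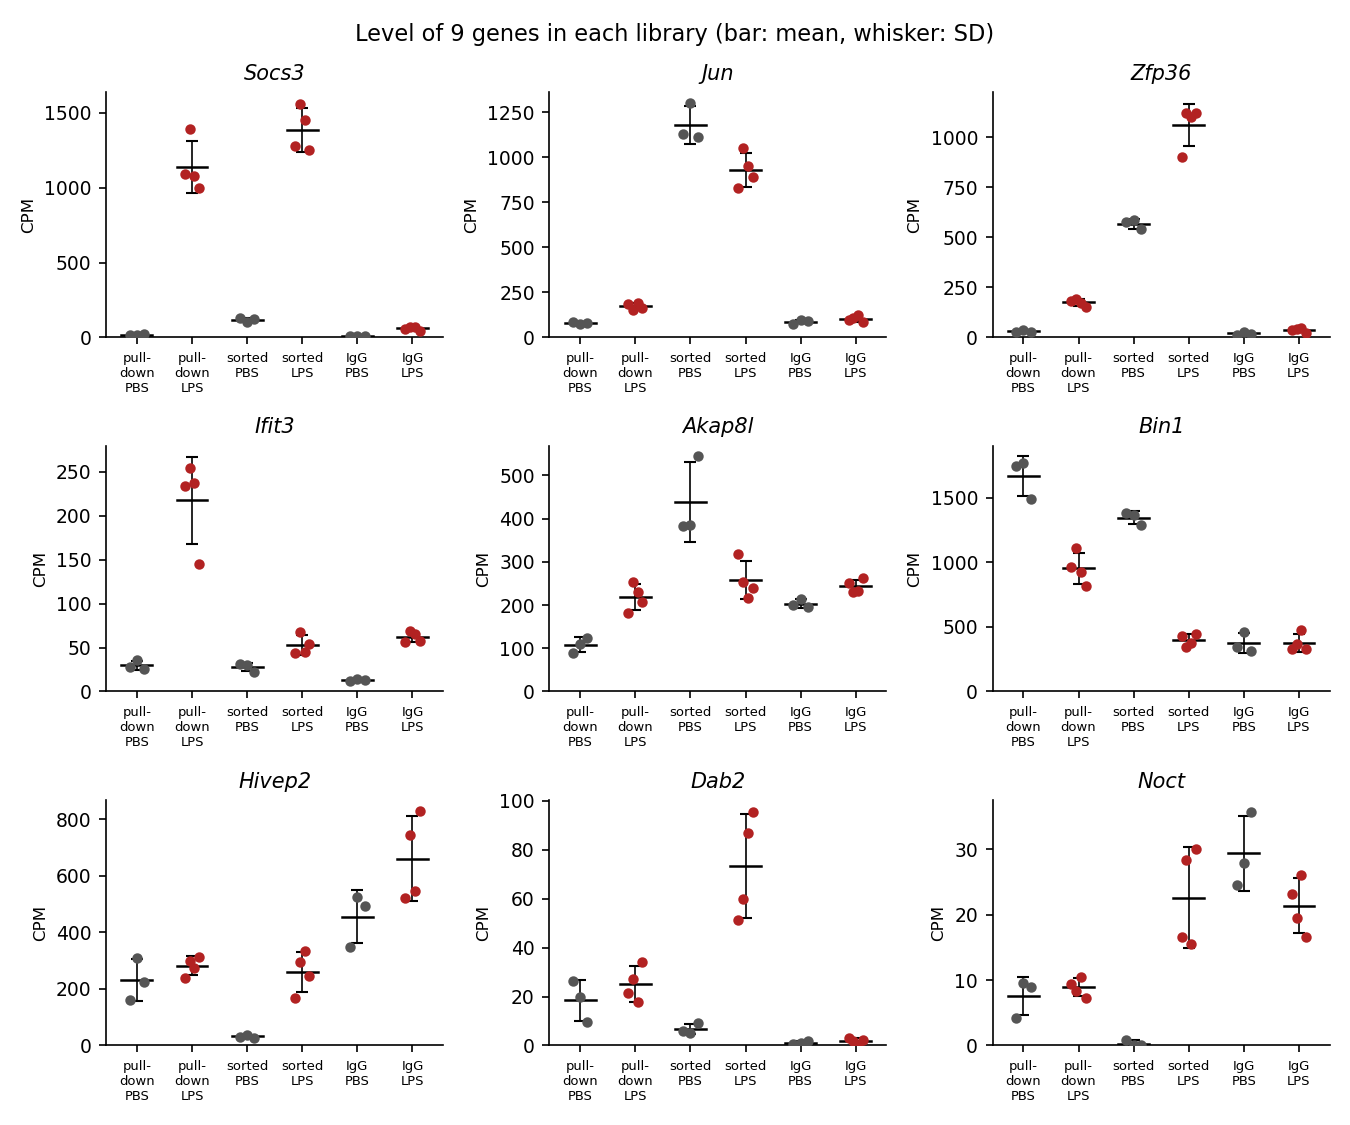
CPM of 9 genes in each library of the 4 groups and of the IgG controls (points), with the group mean as a bar and the SD as a whisker; each panel has its own axis from 0. Jun lies at 930 to 1182 CPM on average in sorted cells and at 79.9 to 174 in pull-downs, while Socs3 averages 1140 in pull-downs and 1388 in sorted cells after LPS.

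Akap8l, Snrnp70 and Srsf7 were among the genes with the smallest p of the term, were added to the named genes for that reason, and belong to no list tested here. Akap8l was at 89.1, 110 and 124 CPM in the PBS pull-downs and 181, 253, 231 and 208 in the LPS pull-downs. Sorted-cell values of Akap8l were 382, 386 and 545 CPM in PBS and 319, 253, 216 and 240 in LPS mice. For Akap8l, in pull-downs the LPS libraries lay above every PBS one, and in sorted cells the LPS libraries lay below every PBS one. Akap8l, a nuclear scaffold protein, rose in pull-downs by 1.01 and fell by 0.78 in sorted cells (term -1.79 ± 0.22 SE, adjusted p = 9.62e-07). Its pull-down mean of 218 CPM after LPS was below the IgG mean of 244. Snrnp70 pull-down levels were 70.7, 73.9 and 50.3 CPM in PBS and 117, 137, 141 and 148 in LPS mice. In sorted cells Snrnp70 was at 609, 533 and 553 CPM and at 319, 392, 392 and 396 CPM. For Snrnp70, in pull-downs the LPS libraries lay above every PBS one, and in sorted cells the LPS libraries lay below every PBS one. Snrnp70, a core protein of the U1 splicing particle, likewise rose in pull-downs (1.05) and fell by 0.59 in sorted cells (term -1.64 ± 0.20 SE, adjusted p = 9.62e-07). Srsf7, a serine-arginine rich splicing factor, stood at 16 ± 2.11 and 93 ± 13.2 CPM in PBS and LPS pull-downs and 258 ± 26.9 and 397 ± 52.8 CPM in PBS and LPS sorted cells and rose in both, by 0.62 and 2.50 (term -1.88 ± 0.25 SE, adjusted p = 1.97e-06). Each of these terms was called in all 22 alternatives that gave a value. In PBS mice the IgG mean was above the pull-down mean for Akap8l (204 against 108 CPM), Snrnp70 (71.9 against 65.0) and Srsf7 (40.9 against 16). After LPS it was below the pull-down mean for Snrnp70 (63.7 against 136) and Srsf7 (27.4 against 93). In pull-downs from sorted cells the LPS response of Srsf7 was 1.76 (adjusted p = 8.63e-11), of Akap8l 0.45 (0.0881) and of Snrnp70 0.18 (0.6), not tested against the responses of sorted total RNA.

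The full set of 15 genes that fell in sorted cells and rose in pull-downs was Gpr162, Ache, Akap8l, Cxx1b, Snrnp70, Jun, BC029214, Arhgef1, Eri3, Pik3cd, Dnajc7, Arglu1, Tspan33, Map3k3 and Cd37. Arglu1, an SR-like splicing regulator, went from a mean of 47.0 to 72.6 CPM in pull-downs and from 338 to 228 CPM in sorted cells, a term of -1.18 ± 0.23 (SE, adjusted p = 0.00091). Pik3cd, the leukocyte isoform of the PI3-kinase catalytic subunit, went from 75.5 to 129 and from 102 to 76.0 CPM (term -1.25 ± 0.25). The 9 genes that rose in sorted cells and fell in pull-downs were Mta1, Rps27a, Ap2b1, Trim32, Pcp4, Eif2a, Chordc1, C4a and Dusp14. Chordc1, a co-chaperone of Hsp90, went from 46.1 to 70.5 CPM in sorted cells and from 4.20 to 1.28 in pull-downs, the latter on 18 and 10 reads (term 2.22 ± 0.66). All of these genes were collected by the direction of their responses and are listed as a description.

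Of the microglial identity genes 14 of 30 fell in both preparations. Of 30 tested homeostatic genes, 18 fell and 5 rose in sorted cells and 17 fell and 4 rose in pull-downs. The term was lower for 3, against 3.79% of all genes tested, and higher for none (9 at an unadjusted p under 0.05, and 3 lower by DESeq2). Bin1 was at 1750, 1770 and 1490 CPM in the PBS pull-downs and 968, 1110, 928 and 816 in the LPS pull-downs. Sorted-cell values of Bin1 were 1380, 1370 and 1290 CPM in PBS and 427, 343, 372 and 442 in LPS mice. Bin1 separated the treatments in both preparations, with every LPS library below every PBS one. Bin1, a membrane-shaping protein and Alzheimer risk gene, fell by 1.76 in sorted cells and by 0.80 in pull-downs (term -0.96 ± 0.17 SE, adjusted p = 0.000321), called in all 22 alternatives that gave a value. Its IgG level was 373 CPM in PBS and 374 in LPS mice. Ltc4s pull-down levels were 1310, 1200 and 1250 CPM in PBS and 1310, 1480, 1220 and 1050 in LPS mice. In sorted cells Ltc4s was at 1030, 855 and 959 CPM and at 599, 559, 478 and 452 CPM. For Ltc4s, in pull-downs the LPS libraries overlapped the PBS ones, and in sorted cells the LPS libraries lay below every PBS one. Ltc4s, leukotriene C4 synthase, fell in sorted cells alone, by 0.87, with a pull-down change of 0.01 (term -0.88 ± 0.18 SE, adjusted p = 0.00143), and the term was called in all 22 alternatives that gave a value. Trem2, a lipid-sensing receptor, stood at 1956 ± 163 and 2038 ± 261 CPM in PBS and LPS pull-downs and 1983 ± 148 and 1355 ± 30.2 CPM in PBS and LPS sorted cells (term -0.61 ± 0.16 SE, adjusted p = 0.0183). The Trem2 call was lost without LPS pull-down 1 or 2, PBS pull-down 1, 2 or 3 or PBS sorted 1 or 2 and under DESeq2 size factors, with no filter beyond 1 count or with all 28 libraries (adjusted p 0.052 to 0.166).

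The defining markers Tmem119 and Cx3cr1 fell in both preparations without a called term. Tmem119 was at 4040, 4190 and 4690 CPM in the PBS pull-downs and 2480, 2970, 2380 and 3020 in the LPS pull-downs. Sorted-cell values of Tmem119 were 2890, 3570 and 3870 CPM in PBS and 1860, 1560, 1460 and 1690 in LPS mice. Tmem119 separated the treatments in both preparations, with every LPS library below every PBS one. Tmem119 fell by 1.07 in sorted cells and by 0.67 in pull-downs (term -0.40 ± 0.17 SE, adjusted p = 0.174). Cx3cr1, which carries the Cre insertion, stood at 956 ± 90.9 and 274 ± 38.5 CPM in PBS and LPS pull-downs and 2887 ± 225 and 1048 ± 126 CPM in PBS and LPS sorted cells (term 0.35 ± 0.18 SE, adjusted p = 0.275). Hk3, a hexokinase of myeloid cells, stood at 81.1 ± 16.2 and 74.5 ± 9.83 CPM in PBS and LPS pull-downs and 141 ± 23.1 and 59.1 ± 4.50 CPM in PBS and LPS sorted cells and fell in sorted cells alone (term -1.14 ± 0.24 SE, adjusted p = 0.00185, called in all 22 alternatives that gave a value). Glul, glutamine synthetase and a member of the astrocyte list, stood at 267 ± 74.3 and 214 ± 34.4 CPM in PBS and LPS pull-downs and 739 ± 49.6 and 319 ± 27.9 CPM in PBS and LPS sorted cells (term -0.91 ± 0.21 SE, adjusted p = 0.00553). The Glul call was lost without PBS pull-down 1 or 2 (adjusted p 0.0668 to 0.0728), and the summed astrocyte markers were 1010 to 1330 CPM in PBS and 714 to 823 in LPS sorted cells. That sum includes Glul itself, at 707 to 796 CPM in PBS and 281 to 342 in LPS sorted cells. Of the 14 astrocyte genes tested, 1 had a called fall in sorted cells. Il7r, the receptor of interleukin 7 and 1 of 2 lymphocyte genes tested, went from 65.8 ± 10.3 to 10.6 ± 4.18 CPM in sorted cells and was at 1.39 and 1.42 in pull-downs (term -2.64 ± 0.82 SE, adjusted p = 0.0397). The Il7r call was lost without LPS pull-down 1, 2 or 3, LPS sorted 2 or 4, PBS pull-down 1, 2 or 3 or PBS sorted 2 or 3 and under DESeq2 size factors, with no filter beyond 1 count or with all 28 libraries (adjusted p 0.05 to 0.134).

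Among genes with the most negative terms were several whose sorted reads disappeared after LPS. Ypel2 was at 12.7, 9.56 and 8.87 CPM in the PBS pull-downs and 11.3, 5.94, 11.8 and 6.23 in the LPS pull-downs. Sorted-cell values of Ypel2 were 18.8, 11.7 and 28.9 CPM in PBS and 0, 0, 0 and 0 in LPS mice. Ypel2, a member of the yippee-like zinc-binding family, had no read in any of the 4 LPS sorted libraries against 53 reads in the 3 PBS ones, at least 20.4-fold lower when the empty group is set to 3 reads. Pull-down means of 10.4 and 8.83 CPM, on 45 and 70 reads, were below the IgG means of 37.2 and 26.8 CPM, and the pull-down change was -0.15. Its term had an adjusted p of 2.48e-05 and was called in all 21 alternatives that gave a value, and pull-downs from sorted cells were also at 0 in all 4 LPS libraries and at 7.41, 3.59 and 12.8 CPM in PBS. Snx32 pull-down levels were 26.2, 29.3 and 18.5 CPM in PBS and 19.5, 19.6, 31.5 and 28 in LPS mice. In sorted cells Snx32 was at 18.8, 23.5 and 21 CPM and at 3.66, 1.58, 1.93 and 1.11 CPM. Snx32, a sorting nexin, fell by 3.37 in sorted cells against a change of -0.06 in pull-downs (term -3.31 ± 0.67 SE, adjusted p = 0.000108), called in all 21 alternatives that gave a value, and its IgG means of 71.6 and 54.8 CPM were above its pull-down means.

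The other 10 genes of that end rested on few sorted reads. Myadml2 went from 32 to 0 reads in sorted cells (at least 12.3-fold lower) and from 12.6 to 3.91 CPM in pull-downs (adjusted p of the term 0.0176). The Myadml2 call was lost without LPS sorted 3 (adjusted p 0.0622). Spred3, an inhibitor of Ras signalling, went from 10 to 0 reads (at least 3.84-fold lower) against 17.4 and 20.9 CPM in pull-downs and 73.1 and 50.3 in IgG (adjusted p = 0.0141). The Spred3 call was lost without PBS sorted 1 (adjusted p 0.0516). Npdc1, a neural gene, went from 10 to 0 reads (at least 3.84-fold lower) against 139 and 104 CPM in pull-downs and 264 and 246 in IgG (adjusted p = 0.0214). The Npdc1 call was lost without LPS sorted 3 or 4 or PBS sorted 3 and in the DESeq2 test (adjusted p 0.0543 to 0.0683). C2, complement component 2, went from 9 to 0 reads (at least 3.46-fold lower) against 25.8 and 21.5 CPM (adjusted p = 0.0464). The C2 call held in 4 of 21 alternatives and was lost without LPS pull-down 1, 2 or 3, LPS sorted 1, 2, 3 or 4, PBS pull-down 1, 2 or 3 or PBS sorted 1 or 3 and under DESeq2 size factors, under total counts, in the DESeq2 test, with all 28 libraries or with non-robust dispersions (adjusted p 0.0515 to 0.14). Tmem252 held 2 and 0 sorted reads, too few for a fold, while it rose in pull-downs from 0.965 to 21.6 CPM and in IgG from 6.10 to 56.1 (adjusted p of the term 0.036). The Tmem252 call was lost without LPS pull-down 1 or 2, LPS sorted 2, 3 or 4, PBS pull-down 2 or PBS sorted 2 or 3 (adjusted p 0.0509 to 0.161).

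Cmya5, a muscle-type scaffold gene, had 64 and 2 reads in PBS and LPS sorted cells, a ratio of 0.0271 (exact 95% counting interval 0.00321 to 0.102), against 5.54 and 2.97 CPM in pull-downs (adjusted p of the term 0.00396). No alternative ended the Cmya5 call. St8sia4, a polysialyltransferase, had 41 and 1 reads in PBS and LPS sorted cells, a ratio of 0.0212 (exact 95% counting interval 0.000523 to 0.125), against 1.41 and 0.979 CPM in pull-downs (adjusted p 0.047). The St8sia4 call was lost without LPS pull-down 2, 3 or 4, LPS sorted 1, 3 or 4, PBS pull-down 1, 2 or 3 or PBS sorted 1 or 2 and under DESeq2 size factors, under total counts, with no filter beyond 1 count or with all 28 libraries (adjusted p 0.0517 to 0.182). Vangl1, a planar polarity protein, had 29 and 2 reads in PBS and LPS sorted cells, a ratio of 0.0598 (exact 95% counting interval 0.00692 to 0.236), against 2.64 and 2.53 CPM (adjusted p 0.0379). The Vangl1 call was lost without LPS pull-down 1, 2 or 3, LPS sorted 2, 3 or 4, PBS pull-down 1 or 3 or PBS sorted 1, 2 or 3 and under DESeq2 size factors (adjusted p 0.0507 to 0.121). Kcnj9, a potassium channel of neurons, had 12 and 1 reads in PBS and LPS sorted cells, a ratio of 0.0723 (exact 95% counting interval 0.00169 to 0.489), against 11.1 and 11.2 CPM in pull-downs and 53.9 and 44.7 in IgG (adjusted p 0.0464). The Kcnj9 call was lost without LPS pull-down 1 or 3, LPS sorted 2, 3 or 4, PBS pull-down 1, 2 or 3 or PBS sorted 1, 2 or 3 and under DESeq2 size factors, under total counts, with no filter beyond 1 count, with all 28 libraries or with non-robust dispersions (adjusted p 0.05 to 0.145). Mmp15, a membrane-bound matrix protease, had 10 and 1 reads in PBS and LPS sorted cells, a ratio of 0.0867 (exact 95% counting interval 0.00200 to 0.610), against 12.8 and 15.2 CPM (adjusted p 0.0425). The Mmp15 call was lost without LPS pull-down 1, 2 or 3, LPS sorted 1, 2 or 4, PBS pull-down 1, 2 or 3 or PBS sorted 2 or 3 and under DESeq2 size factors, in the DESeq2 test, with no filter beyond 1 count or with all 28 libraries (adjusted p 0.0524 to 0.126). IgG means were above pull-down means under both treatments for Cmya5 (9.12 and 5.19 CPM), St8sia4 (2.64 and 1.76), Vangl1 (3.81 and 2.54) and Mmp15 (36.6 and 26.3) as well. Intervals and floors on reads cover counting error only.

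Hivep2, Hip1, Dab2, C4b and Pabpc1 had a higher response in sorted cells and were among the genes with the smallest p of the term. Hivep2 was at 160, 308 and 226 CPM in the PBS pull-downs and 237, 300, 275 and 313 in the LPS pull-downs. Sorted-cell values of Hivep2 were 31.6, 37.8 and 26.3 CPM in PBS and 167, 294, 333 and 244 in LPS mice. Hivep2 encodes a zinc-finger protein that binds NF-kB type sites. For Hivep2, in pull-downs the LPS libraries overlapped the PBS ones, and in sorted cells the LPS libraries lay above every PBS one. Hivep2 rose by 3.04 in sorted cells against 0.27 in pull-downs (term 2.77 ± 0.33 SE, adjusted p = 5.42e-06), and its IgG means, 456 and 661 CPM, were above its pull-down means under both treatments. Hip1 pull-down levels were 17.7, 14 and 24.4 CPM in PBS and 42.5, 54.1, 49.8 and 55.1 in LPS mice. In sorted cells Hip1 was at 5.97, 2.61 and 7.88 CPM and at 80.6, 117, 133 and 112 CPM. Hip1 separated the treatments in both preparations, with every LPS library above every PBS one. Hip1, a clathrin adaptor, rose by 4.32 in sorted cells and 1.42 in pull-downs (term 2.90 ± 0.46 SE, adjusted p = 8.76e-06). Dab2 was at 26.2, 19.8 and 9.61 CPM in the PBS pull-downs and 21.4, 27.3, 17.7 and 34.3 in the LPS pull-downs. Sorted-cell values of Dab2 were 5.97, 5.21 and 9.20 CPM in PBS and 51.3, 60, 87 and 95.6 in LPS mice. For Dab2, in pull-downs the LPS libraries overlapped the PBS ones, and in sorted cells the LPS libraries lay above every PBS one. Dab2, another clathrin adaptor, rose in sorted cells alone, by 3.48 (term 3.11 ± 0.51 SE, adjusted p = 2.5e-05), with IgG at 1.16 and 1.76 CPM. Each term was called in all 22 alternatives that gave a value, and in pull-downs from sorted cells the genes rose by 2.46, 3.75 and 2.62.

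C4b was at 120, 126 and 140 CPM in the PBS pull-downs and 107, 113, 100 and 71.7 in the LPS pull-downs. Sorted-cell values of C4b were 17.9, 15.6 and 9.20 CPM in PBS and 56.8, 75.8, 57 and 55.6 in LPS mice. For C4b, in pull-downs the LPS libraries lay below every PBS one, and in sorted cells the LPS libraries lay above every PBS one. C4b, complement component 4, rose in sorted cells by 2.04 against -0.37 in pull-downs (term 2.41 ± 0.31 SE, adjusted p = 9.62e-07). Its level was lower in sorted cells than in pull-downs under both treatments, with a log2 difference of -3.12 in PBS and -0.71 in LPS mice. C4a, a near-identical copy whose reads the counting may not separate from those of C4b, stood at 15.4 ± 2.90 and 7.91 ± 1.75 CPM in PBS and LPS pull-downs and 2.01 ± 1.21 and 10.3 ± 2.19 CPM in PBS and LPS sorted cells (term 3.13 ± 0.71 SE, adjusted p = 0.00113), and its values are uncertain for that reason. Pabpc1 pull-down levels were 220, 201 and 205 CPM in PBS and 195, 166, 206 and 175 in LPS mice. In sorted cells Pabpc1 was at 358, 271 and 288 CPM and at 551, 630, 755 and 670 CPM. For Pabpc1, in pull-downs the LPS libraries overlapped the PBS ones, and in sorted cells the LPS libraries lay above every PBS one. Pabpc1, the cytoplasmic poly(A)-binding protein, rose by 1.09 in sorted cells with a pull-down change of -0.17 (term 1.26 ± 0.19 SE, adjusted p = 2.82e-05). The terms of C4b and Pabpc1 were called in all 22 alternatives that gave a value.

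Noct, a circadian phosphatase of nicotinamide cofactors, had 1 and 70 reads in PBS and LPS sorted cells, a ratio of 60.7 (exact 95% counting interval 10.5 to 2430). Noct was at 4.24, 9.56 and 8.87 CPM in the PBS pull-downs and 9.45, 8.32, 10.5 and 7.27 in the LPS pull-downs. Sorted-cell values of Noct were 0.853, 0 and 0 CPM in PBS and 16.5, 28.4, 15.5 and 30 in LPS mice. All 4 LPS sorted libraries lay above every PBS sorted one, while the pull-downs overlapped. Its term had an adjusted p of 8.24e-05 and was called in all 21 alternatives that gave a value, and the IgG means of 29.3 and 21.3 CPM were above the pull-down means. Ptgs2, the inducible cyclooxygenase, had 1 and 99 reads in PBS and LPS sorted cells, a ratio of 85.9 (exact 95% counting interval 15.1 to 3430), with pull-downs at 2.12, 0.637 and 0 CPM in PBS and 0.945, 1.19, 3.93 and 1.04 in LPS mice (adjusted p of the term 0.0456). The Ptgs2 call was lost without LPS pull-down 1 or 2, LPS sorted 2 or 3, PBS pull-down 1 or 2 or PBS sorted 1 or 3 and with non-robust dispersions (adjusted p 0.0538 to 0.468). F3 pull-down levels were 5.66, 12.1 and 5.18 CPM in PBS and 16.1, 28.5, 16.4 and 10.4 in LPS mice. In sorted cells F3 was at 2.56, 1.30 and 1.31 CPM and at 36.6, 90, 37.7 and 32.2 CPM. For F3, in pull-downs the LPS libraries overlapped the PBS ones, and in sorted cells the LPS libraries lay above every PBS one. F3, tissue factor, the starter of coagulation, rose by 4.62 in sorted cells and 1.22 in pull-downs (term 3.40 ± 0.98 SE, adjusted p = 0.0118). The F3 call was lost without PBS pull-down 2 (adjusted p 0.0697), and LPS sorted replicate 2 was its highest library. IgG means in PBS and LPS mice were 23.4 and 30.8 CPM for F3 and 2.51 and 5.86 for Ptgs2. Both genes were thus higher in IgG than in pull-downs under both treatments. Tfrc, the transferrin receptor, stood at 3.05 ± 1.93 and 1.54 ± 0.562 CPM in PBS and LPS pull-downs and 21 ± 8.11 and 70.5 ± 22.9 CPM in PBS and LPS sorted cells (term 2.94 ± 0.74 SE, adjusted p = 0.0122). The Tfrc call was lost without PBS pull-down 3 (adjusted p 0.158), and IgG was at 29.5 and 13 CPM.

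The remaining genes of this end described here, other than Zfp729b, had at most 2 reads in PBS sorted cells. Adamtsl4, an extracellular matrix protein, had 2 and 70 reads in PBS and LPS sorted cells, a ratio of 30.4 (exact 95% counting interval 8.10 to 256), against 5.36 and 12.2 CPM in pull-downs (adjusted p of the term 0.00511). The Adamtsl4 call was lost without PBS sorted 1 (adjusted p 0.0512). Igfbp6, an insulin-like growth factor binding protein, had 1 and 72 reads in PBS and LPS sorted cells, a ratio of 62.4 (exact 95% counting interval 10.9 to 2500), and rose in pull-downs from 16.2 to 104 CPM (adjusted p 0.0419). The Igfbp6 call was lost without LPS pull-down 1, LPS sorted 3 or 4, PBS pull-down 2 or 3 or PBS sorted 1 or 2 and in the DESeq2 test or with all 28 libraries (adjusted p 0.0504 to 0.233). N4bp3 had 1 and 17 reads in PBS and LPS sorted cells, a ratio of 14.7 (exact 95% counting interval 2.31 to 616), against 13.3 and 13.2 CPM (adjusted p 0.0229). The N4bp3 call was lost without PBS sorted 1 or 2 and in the DESeq2 test (adjusted p 0.0644 to 0.129). Dusp14, a dual-specificity phosphatase, went from 0 to 6 sorted reads (at least 1.73-fold higher) and from 29.7 to 15.6 CPM in pull-downs (adjusted p 0.0464). The Dusp14 call was lost without LPS pull-down 2 or 3, LPS sorted 1, 2, 3 or 4, PBS pull-down 1 or 2 or PBS sorted 1, 2 or 3 and under total counts, in the DESeq2 test or with non-robust dispersions (adjusted p 0.05 to 0.135). Zfp729b, a zinc-finger gene, differed on the pull-down side, at 8 and 1 reads, a ratio of 0.0738 (exact 95% counting interval 0.00166 to 0.550), against 44 and 47.4 CPM in sorted cells (adjusted p 0.0363). The Zfp729b call was lost without LPS pull-down 2 or 3, LPS sorted 3, PBS pull-down 1 or 3 or PBS sorted 1 and with all 28 libraries (adjusted p 0.0544 to 0.165). IgG means were above pull-down means under both treatments for N4bp3 (23.3 and 32.55 CPM), Dusp14 (51.8 and 38.4) and Zfp729b (3.90 and 1.87). For Igfbp6 (68.7 and 68.4) and Adamtsl4 (9.65 and 6.00) they were above in PBS mice and below after LPS.

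Protein synthesis, folding and respiration contributed a handful of terms. Of 79 cytosolic ribosomal protein genes 3 were called higher, against 1.47% of all genes tested, and none lower (12 at an unadjusted p under 0.05, and DESeq2 called 4 higher and none lower). In this list 22 rose in sorted cells and 20 in pull-downs, and the median term was 0.11. Rpl4 stood at 2501 ± 108 and 2730 ± 293 CPM in PBS and LPS pull-downs and 784 ± 10.4 and 1361 ± 48.1 CPM in PBS and LPS sorted cells (term 0.67 ± 0.16 SE, adjusted p = 0.00662) and Rplp0 at 713 ± 52.8, 611 ± 45.9, 317 ± 59.3 and 457 ± 49.9 in the same order (term 0.75 ± 0.19 SE, adjusted p = 0.0108). The Rpl4 call was lost with all 28 libraries (adjusted p 0.0697) and the Rplp0 call with all 28 libraries (adjusted p 0.0703). Rps27a had a term of 1.00 ± 0.28 SE, adjusted p = 0.0235. It stood at 49.0 ± 6.86 and 35.4 ± 4.42 CPM in PBS and LPS pull-downs. In PBS and LPS sorted cells it was at 37.4 ± 6.48 and 54.6 ± 6.57 CPM, and in IgG at 44.6 and 37.3. The Rps27a call was lost without PBS pull-down 3 or PBS sorted 2 and with all 28 libraries (adjusted p 0.0643 to 0.155). Of 14 heat shock genes 1 was called higher, against 1.47% of all genes tested, and none lower (6 at an unadjusted p under 0.05, and 1 higher by DESeq2). In this list 9 rose in sorted cells and 4 in pull-downs, and the median term was 0.29. The called member was Hsp90ab1, the constitutive cytosolic Hsp90 chaperone. Hsp90ab1 stood at 836 ± 19.1 and 1087 ± 232 CPM in PBS and LPS pull-downs. In PBS and LPS sorted cells it was at 472 ± 56.8 and 1081 ± 269 CPM (term 0.82 ± 0.22 SE, adjusted p = 0.0265). The Hsp90ab1 call was lost without LPS sorted 3 or 4 or PBS sorted 2 or 3 and with all 28 libraries (adjusted p 0.0547 to 0.0945). Of 79 respiratory chain genes 2 were called higher and 1 lower, against 1.47% and 3.79% of all genes tested. In that list 13 had an unadjusted p under 0.05, and DESeq2 called 2 higher and 1 lower. Atp5b, the beta subunit of ATP synthase, had a term of 0.58 ± 0.18 SE, adjusted p = 0.047. It stood at 1363 ± 77 and 1243 ± 227 CPM in PBS and LPS pull-downs. In PBS and LPS sorted cells it was at 304 ± 14.5 and 413 ± 24.0 CPM, and in IgG at 810 and 758. The Atp5b call was lost without LPS pull-down 1 or 2, LPS sorted 2, 3 or 4, PBS pull-down 3 or PBS sorted 1, 2 or 3 and with all 28 libraries or with non-robust dispersions (adjusted p 0.0528 to 0.176). Ndufs1, a complex I subunit, had a term of 0.78 ± 0.24 SE, adjusted p = 0.0475, a call lost without LPS pull-down 2 or 3, LPS sorted 2, 3 or 4, PBS pull-down 2 or 3 or PBS sorted 1, 2 or 3 and with all 28 libraries (adjusted p 0.0567 to 0.125). Ndufs1 fell in pull-downs, from 80.1 ± 4.68 to 57.9 ± 11.2 CPM (-0.46, adjusted p = 0.0188). Its change in sorted cells, from 61.65 ± 3.87 to 76.0 ± 4.70 CPM, was not called (0.31, adjusted p = 0.173). The IgG means of 190 and 192 CPM were above its pull-down means. Atp5sl, an assembly factor, had one of -1.46 ± 0.36 SE, adjusted p = 0.00883, lost without LPS sorted 3 (adjusted p 0.0532).

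Of 19 antigen presentation genes 1 was called higher, against 1.47% of all genes tested, and none lower (7 at an unadjusted p under 0.05, and 2 higher by DESeq2). Of these terms 7 lay above 0 and 12 below, with a median of -0.29. The called member was B2m, the light chain of MHC class I. B2m stood at 894 ± 159 and 746 ± 172 CPM in PBS and LPS pull-downs. In PBS and LPS sorted cells it was at 3617 ± 432 and 4729 ± 246 CPM (term 0.65 ± 0.19 SE, adjusted p = 0.0324). The B2m call was lost without LPS pull-down 2, LPS sorted 2, 3 or 4, PBS pull-down 1 or PBS sorted 1 or 3 and with all 28 libraries (adjusted p 0.0565 to 0.141). Kcnq1ot1, a nuclear long noncoding RNA read antisense to the channel gene Kcnq1, stood at 3.52 ± 1.53 and 1.18 ± 0.850 CPM in PBS and LPS pull-downs and 118 ± 28.6 and 219 ± 50.5 CPM in PBS and LPS sorted cells (term 2.21 ± 0.67 SE, adjusted p = 0.0341). The Kcnq1ot1 call was lost without LPS pull-down 1 or 2, LPS sorted 3 or 4, PBS pull-down 1 or 3 or PBS sorted 1 or 2 (adjusted p 0.0522 to 0.178). The strand of counting is not given in the sources used here, so reads of Kcnq1ot1 and Kcnq1 cannot be told apart, and the same holds for other named genes that overlap a second one in RefSeq, such as Tmem252 and Pgm5, Spred3 and Ggn, Nfkbib and Ccer2, B2m and Patl2, and Hk3 and Unc5a. No term was called among 29 lysosome and phagocytosis genes (4 at an unadjusted p under 0.05, 2 higher by DESeq2) or the 15 genes of the list of mRNA decay regulators (3 and none), which leaves out Zfp36 and Btg2, counted among the immediate early genes with called terms. None was called among 24 neuron genes either (2 at an unadjusted p under 0.05, and none by DESeq2).

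The 250 bases before the start site show what sequence lies next to the genes of both ends, and were searched on both strands for the AP-1 site TGACTCA, the cAMP response element TGACGTCA and the NF-kB type sites GGAATTCC and GGACTTTCC. Printed are Noct and Ypel2, from the 2 ends of the term and called in all alternatives, and F3, Rsad2 and Btg2, chosen after their match was seen; capitals mark the matched bases, and lower case alone means no match. The sequences come from RefSeq (GRCm38.p6), read 5′ to 3′ along the gene, at chr3:51224197-51224446 on the plus strand (Noct), chr11:86993763-86994012 on the minus strand (Ypel2), chr3:121723287-121723536 on the plus strand (F3), chr12:26456453-26456702 on the minus strand (Rsad2) and chr1:134079156-134079405 on the minus strand (Btg2).
Noct: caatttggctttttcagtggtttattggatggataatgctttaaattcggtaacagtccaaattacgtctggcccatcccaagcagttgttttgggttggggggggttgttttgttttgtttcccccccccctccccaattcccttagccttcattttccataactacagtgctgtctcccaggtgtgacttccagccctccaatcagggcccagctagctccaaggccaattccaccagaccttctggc
Ypel2: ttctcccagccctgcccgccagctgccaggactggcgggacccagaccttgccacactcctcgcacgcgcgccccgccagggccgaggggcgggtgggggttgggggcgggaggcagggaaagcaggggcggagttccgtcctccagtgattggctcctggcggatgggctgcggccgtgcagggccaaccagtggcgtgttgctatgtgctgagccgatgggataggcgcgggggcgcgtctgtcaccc
F3: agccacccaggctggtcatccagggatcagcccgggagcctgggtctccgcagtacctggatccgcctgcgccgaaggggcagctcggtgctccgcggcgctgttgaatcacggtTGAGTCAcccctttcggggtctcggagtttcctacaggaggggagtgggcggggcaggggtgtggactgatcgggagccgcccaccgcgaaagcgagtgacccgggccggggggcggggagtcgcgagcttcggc
Rsad2: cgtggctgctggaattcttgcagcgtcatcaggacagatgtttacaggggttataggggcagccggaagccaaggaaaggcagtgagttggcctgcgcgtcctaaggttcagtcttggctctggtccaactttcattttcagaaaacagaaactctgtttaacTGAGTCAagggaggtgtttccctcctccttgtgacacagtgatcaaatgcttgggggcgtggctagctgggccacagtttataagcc
Btg2: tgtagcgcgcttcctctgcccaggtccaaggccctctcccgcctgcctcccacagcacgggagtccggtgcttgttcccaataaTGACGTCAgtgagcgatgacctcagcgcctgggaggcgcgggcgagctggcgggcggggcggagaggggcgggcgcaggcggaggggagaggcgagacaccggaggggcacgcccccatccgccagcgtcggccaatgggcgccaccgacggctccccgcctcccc

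Of the 68 named genes 50 had a promoter entry, and 5 of these held a match. Of the 6 genes at the outermost ends of the term among those with an entry, 0 held a match. F3 had TGACTCA on the reverse strand 135 to 129 bases before the start, Rsad2 the same site at 87 to 81, and Btg2 the palindromic TGACGTCA at 166 to 159. B2m and Nfkbia had GGACTTTCC at 126 to 118 and at 178 to 170 bases before the start. Over all 27025 promoters of the table TGACTCA was present in 4.43%, TGACGTCA in 1.62%, GGAATTCC in 0.429% and GGACTTTCC in 0.281%. Among the 8084 tested genes with an entry the shares were 2.68%, 2.98%, 0.445% and 0.371% in the same order. Any of the 4 was present in 5.3% of 302 promoters of genes with a lower term, 6.9% of 116 with a higher term and 6.44% of 8084 tested genes with an entry. A match is a description of letters and not of binding.

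In pull-downs made from sorted cells, which the term does not use, most genes with a called term changed in the direction of the term. There the ribosomes were pulled down after the sort, in 7 libraries with 166851 to 669508 counts, and LPS raised 1450 genes (13.9% of 10414) and lowered 1450 (13.9%). Of the genes with a lower term 235 of 397 (59.2%) fell after LPS in this readout and 328 (82.6%) had a change below 0, with a median of -1.02. Of those with a higher term 82 of 154 (53.2%) rose and 134 (87%) had a change above 0, with a median of 0.816, while among genes without a called term 53.2% lay below 0 and the median was -0.0623. These libraries share the sort, and by the design text may share the animals, with the sorted libraries of the term. In those sorted libraries 89.2% of the genes with a lower term lay below 0 and 98.1% of those with a higher term above 0. The direction in pull-downs from sorted cells can thus repeat the sorted response, and it cannot test the difference from whole-brain pull-downs. The IgG pull-downs, the background of the whole-brain pull-down, gave 113 rises (1.09%) and 12 falls (0.115%), and the median LPS change was 0.0333 for genes with a lower term, 0.0245 for those with a higher term and -0.0137 for the rest.

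**Figure D4:**
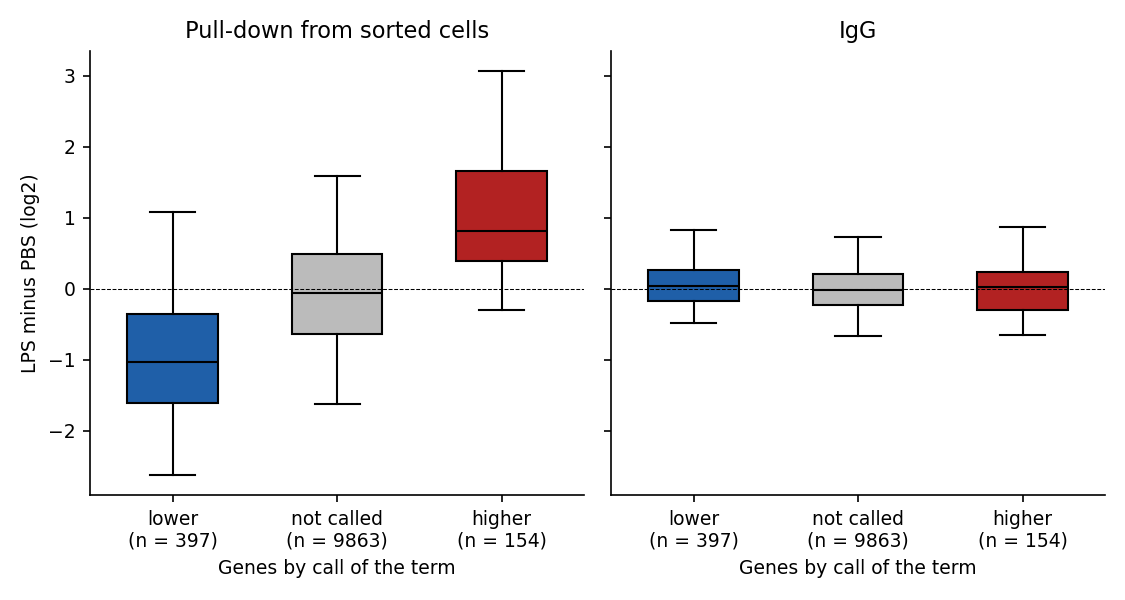
Log2 change from PBS to LPS in pull-downs from sorted cells (left) and in IgG pull-downs (right) for genes with a lower, no called or a higher term; boxes span the quartiles with the median as a line, and whiskers the 5th to 95th percentile. In pull-downs from sorted cells the medians are -1.02, -0.0623 and 0.816, and in IgG they lie between -0.0137 and 0.0333.

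Levels differed between the preparations for most genes under both treatments: sorted cells were above pull-downs for 3800 genes (36.2%) and below for 3983 (37.9%) in PBS mice, and above for 3798 (36.2%) and below for 4429 (42.2%) in LPS mice. In the digest experiment, without LPS, cells sorted after the digest were above pull-downs for 3468 of 10105 genes (34.3%) and below for 3887 (38.5%), and cells sorted without it for 3490 (34.5%) and 3873 (38.3%). Of the genes with a lower term that were tested there, 181 of 389 (46.5%) were above pull-downs after the digest and 107 (27.5%) below, against 33.8% and 38.8% of genes without a called term. For genes with a higher term the order was the reverse, with 48 of 144 (33.3%) above and 69 (47.9%) below. Without the digest the shares were 47.3% above and 27% below for genes with a lower term.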

How the data were processed

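The authors deposited counts of reads per gene over exons, and per the submitters' processing notes the tools were bcl2fastq, HISAT 0.1.5 and HOMER with the mm9 build; the gene annotation and the strand of counting are not given in the sources used here. The counts were used as deposited. In R 4.3.3, genes were kept by filterByExpr of edgeR 4.0.16 (minimum count 10), scaled by TMM, and fitted with the robust quasi-likelihood model over the 14 libraries in 4 groups. The term, the responses and the level differences are contrasts of that fit, with Benjamini-Hochberg adjustment over all genes tested and a threshold of 0.05, and SE is the Wald error of the fit. A separate fit to all 28 libraries of the LPS experiment gave the IgG responses and those of pull-downs from sorted cells, and a fit to 15 libraries gave the digest experiment. CPM values are counts relative to the TMM-scaled library size. Genes with an empty group are given by their reads, with a floor of 3 reads over the group.

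The members and gene lists were chosen with earlier results of these data known. Named are 12 genes from each end of the called terms, at 10 CPM or more in the highest group (leaving out uncharacterised gene symbols and small RNAs), up to 4 called members of each list by p, and 8 fixed genes: Tnf, Il1b, Fos, Nfkbia, Tmem119, Cx3cr1, Lcn2 and Cd14. The 6 genes per direction with the smallest p were added after their values were seen, as were the genes marked so in the text. The values of 1 named gene are not reported here. Alternatives were other scalings, DESeq2 1.42.0, other filters, all 28 libraries, non-robust dispersions, a replicate block and leaving out each library; those for the other contrasts were in part chosen after seeing the data.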

Additional observations from a re-analysis of the deposited data

Results flagged for a closer look

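The response to LPS differed between sorted cells and pull-downs, by the test of that difference itself, for 552 genes. In 15 of them the responses were called with a fall in sorted cells and a rise in pull-downs, and in 9 with the reverse.

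A library far from the other 3 of its group, by Dixon's gap at the 95% level, was looked for in 140 groups of 4 and found in 15. In 4 of these, Kcnj9, St8sia4, Mmp15 and Zfp729b, the group held its only read in 1 library, which fixes the gap at its highest value. The other 11 came from 136 groups, where chance gives about 1 in 20. In LPS sorted replicate 1 the summed neuron markers were the highest at 374 CPM, as was Kcnj9 at 1.83 CPM, while Cxcl9 at 25.6, Zfp36 at 901 and Snrnp70 at 319 CPM were the lowest of the group. In LPS sorted replicate 2 the highest values were those of F3 at 90.0, C4b at 75.8, Ier2 at 363 and St8sia4 at 1.58 CPM. In LPS sorted replicate 3 C4a (13.5 CPM) and Mmp15 (0.966 CPM) were highest, and in LPS sorted replicate 4 the summed erythroid markers, at 546 CPM. Among LPS pull-downs the outlying values were Zfp729b at 0.315 CPM in replicate 1, Ptgs2 at 3.93 in replicate 3 and Atp5b at 1580 in replicate 4. Their part in the terms was not tested beyond leaving each library out.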

How the results depend on the processing

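No term of the 68 named genes changed sign in any alternative. Of 952 values with 1 library left out, 732 stayed on their side of the threshold and 220 lost the call, and of 520 under other settings 460 stayed, 57 lost it and 3 gained it. With 1 library left out the called terms numbered 302 to 756, 93 to 241 of them higher and 196 to 515 lower in sorted cells. The lower terms numbered 260 by DESeq2 (which gave no adjusted p for 814 genes) and 262 at a minimum count of 30, and fitting all 28 libraries left 367 terms, 91 of them higher. The called terms numbered 688 without LPS sorted 1 (193 higher and 495 lower) and 756 without LPS pull-down 4. Without any other single library they numbered fewer than the 552 of the full fit. Each left-out library leaves fewer samples, and the cause of these shifts was not tested. DESeq2 size factors kept 433 of the 552 genes called, DESeq2 402 and the 28 libraries 362. Counts of the other contrasts stayed within 1.5 times. The labels say that sorting and pull-down used the same animals without saying that the number marks the animal; same-numbered libraries correlated in their deviations by 0.021 to 0.12 (1 of 7 pairs over 0.1), each best with its own number in 7 of 7. A replicate block gave 704 terms, 204 higher and 500 lower, 537 of them shared with the 552, and changed the call of 1 named gene, Lcn2, which was also called by DESeq2 and with no filter beyond 1 count. Sorted libraries, with 501321 to 1020518 counts, limit the terms of genes with few reads.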
